A study of Mus musculus with 6 samples.

Results

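The 10 genes described here encode members of the interleukin-6 (IL-6) cytokine family, the receptors that bind them, and the signalling route below those receptors. They comprise the ligand genes Il6, Il11, Lif and Clcf1, the receptor genes Il6ra, Il6st, Lifr and Osmr, the transcription factor gene Stat3 and the feedback inhibitor gene Socs3. They were listed by name, with earlier results of these data known, so the choice was not blind. Each was found by its Ensembl identifier, so that 10 of the 55536 genes in the deposited tables were followed. RNA was sequenced from SVEC4-10, an immortalised mouse line labelled as endothelial, grown in medium with fetal bovine serum. Both groups carry the time label 24 hours: 3 control libraries from untreated cells, and 3 libraries from cells given nattokinase. This enzyme is a serine protease of fermented soybeans that digests fibrin, and the labels used here give no dose. The question was how transcript levels of treated cells compare with those of the controls.

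Cytokines of this family signal through gp130, the shared receptor subunit encoded by Il6st. IL-6 and IL-11 first bind their own alpha receptors and then pair gp130 with gp130, whereas LIF, CLCF1 and cardiotrophin-1 pair gp130 with the LIF receptor, and mouse oncostatin M pairs it chiefly with the oncostatin M receptor. The paired chains activate JAK kinases, which phosphorylate STAT3, and STAT3 in turn induces Socs3, whose product binds gp130 and the JAKs and shuts the signal down. In vessel walls and fibroblasts this route is known for its part in acute inflammation and tissue repair.

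Between 15044778 and 16496433 reads were assigned to genes in the control libraries and between 17525090 and 18341370 in the nattokinase libraries. Protein-coding genes took 95.99% ± 0.66 of them in the controls and 98.35% ± 0.044 with nattokinase (SD, n = 3 each). Whether replicates were separate cultures is not stated, and the p-values therefore reflect only how far these libraries differ among themselves, which may be technical. Of 10 defining endothelial genes, 0 reached 1 FPKM (reads scaled by exon length and library total) in 3 libraries, so that the label endothelial is not borne out by these markers. Their summed level was 0.089 to 0.218 FPKM in the controls and 0.104 to 0.234 FPKM with nattokinase, and no library had a read of Tie1, Erg, Cldn5 or Emcn (4 of the 10). Of 9 fibroblast and mural genes 6 reached that level, and their summed level was 2067 to 2215 FPKM in the controls and 1849 to 1921 FPKM with nattokinase. Of 4 lymphatic endothelial genes 2 did, Flt4 and Pdpn, with sums of 125 to 136 and 110 to 115 FPKM, while Prox1 and Lyve1 had 0 reads. Of 7 leukocyte genes 2 did, Cd14 and Cd68, and the summed level was 6.06 to 7.60 FPKM in the controls and 8.18 to 8.36 FPKM with nattokinase, with Ptprc, Itgam and Cd3e at 0 reads. Of 4 epithelial genes 1 did, with sums of 4.34 to 4.81 and 4.47 to 5.57 FPKM. The fibroblast, lymphatic and leukocyte sums and the protein-coding share moved with the groups, but genes within a sum did not all move alike. Mean Col1a1 (1403 to 1236 FPKM) and Col3a1 (144 to 95.8) were lower without overlap. Pdgfra (7.45 to 8.32) and Pdgfrb (17.0 to 19.4) were higher without overlap, while Col1a2 and Dcn overlapped. Pdpn (119 to 102) was lower and Cd68 (1.19 to 2.42) higher, while Flt4 and Cd14 overlapped. Of these, Col3a1, Pdpn and Cd68 were called (limma adjusted p = 7.7e-05, 0.027 and 0.0094). Col1a1, Pdgfra and Pdgfrb were not (limma adjusted p = 0.084, 0.17 and 0.12). Such separation of the groups was seen for 28.8% of all tested genes. The part of these differences in the results below was not tested. In such bulk samples fewer cells of a type and less RNA per cell cannot be told apart.

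The gp130 gene Il6st, Stat3 and Socs3 were the most abundant members. Over the 6 libraries Il6st averaged 33.2 ± 1.82 FPKM (SD, n = 6), Stat3 25.4 ± 1.48 and Socs3 14.6 ± 2.64, and the ranges of these 3 genes did not meet. Below them lay Lif at 9.24 ± 0.73, Lifr at 8.77 ± 1.64, Osmr at 7.08 ± 0.77 and Clcf1 at 6.73 ± 0.44 FPKM, and in this stretch each gene's range overlapped that of its neighbour. Il6 at 0.868 ± 0.11 FPKM and Il6ra at 0.685 ± 0.12 overlapped each other, and Il11 at 0.365 ± 0.14 was the lowest of the 10. FPKM is scaled by the merged length of a gene's annotated exons. Transcript forms of different length were not separated, so the order of levels between genes is approximate.

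**Figure D1:**
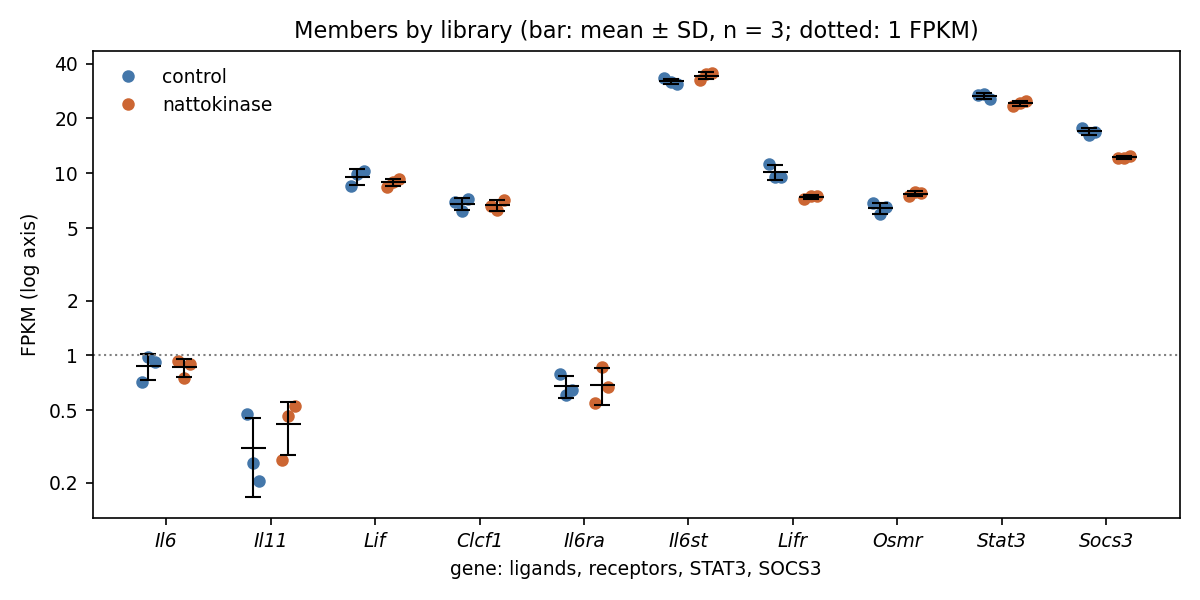
FPKM of the 10 members (log axis) in the 3 control (blue) and 3 nattokinase (orange) libraries, with mean ± SD in black and the 1 FPKM line dotted. Lifr and Socs3 lie lower and Osmr higher in every nattokinase library, Stat3 shows a small gap between the groups, and Il6, Il11 and Il6ra stay under 1 FPKM.

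With nattokinase, Lifr and Socs3 fell to 0.727 and 0.721 of their control level and Osmr rose 1.20-fold, while Il6st, Lif, Clcf1 and Stat3 were not called. A gene was tested where it reached 1 FPKM in at least 3 libraries, which 7 of the 10 members did, each in all 6 libraries. Il6, Il11 and Il6ra did not. Among the 7 tested members 1 rose and 2 fell at a limma adjusted p of 0.05, beside 5.61% of all 10913 tested genes that rose and 3.24% that fell (8.85% in either direction). The median log2 fold change was −0.09 over the 7 members and 0.01 over all tested genes, on the log2(FPKM + 1) scale used for every limma fold change here. When libraries were scaled to equal totals on protein-coding genes, 478 genes rose and 497 fell over the whole table in place of 612 and 354, so that 49.0% of calls were higher in place of 63.4%, and Lifr and Socs3 were still called.

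Of the ligand genes, Lif (chr11:4257557-4272514, GRCm38, plus strand), which encodes leukemia inhibitory factor, was the most abundant and was not called. Its level was 8.55, 9.90 and 10.3 FPKM in the controls and 8.45, 8.97 and 9.30 with nattokinase. The groups overlapped, and the log2 fold change was −0.09 with a 95% interval from −0.25 to 0.07 (limma adjusted p = 0.49). Clcf1 (chr19:4214238-4223490, plus strand) encodes cardiotrophin-like cytokine factor 1, a ligand of the ciliary neurotrophic factor receptor complex. It had 6.94, 6.23 and 7.22 FPKM in the controls and 6.60, 6.25 and 7.16 with nattokinase, again overlapping, with a log2 fold change of −0.02 (interval −0.18 to 0.13, limma adjusted p = 0.88).

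Il6 and Il11 were detected in every library, but at a depth that leaves wide intervals. Il6, the founding cytokine of the family (chr5:30013114-30019981, plus strand), had 28, 36 and 37 reads in the controls and 41, 32 and 40 with nattokinase, or 0.711, 0.986 and 0.924 against 0.936, 0.752 and 0.898 FPKM. The groups overlapped fully. In a test on whole reads recovered from the FPKM values (limma-voom, genes with at least 10 reads in 3 libraries), its log2 fold change was −0.01 with an interval from −0.52 to 0.50 (limma-voom adjusted p = 0.99). Il11, a cytokine that fibroblasts release in fibrosis (chr7:4772373-4782859, minus strand), had 16, 8 and 7 reads in the controls and 10, 17 and 20 with nattokinase. Its levels of 0.474, 0.256 and 0.204 against 0.266, 0.466 and 0.524 FPKM overlapped, and the interval of its limma-voom log2 fold change of 0.44 ran from −0.40 to 1.28 (adjusted p = 0.58). Differences of Il6 or Il11 that lie within these intervals were not excluded at this depth.

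The start regions of Il6, Il11 and Lif share a short motif, shown here because the genes are the secreted signals of the family. In the 250 bases before RefSeq gene starts (GRCm38.p6), 9 of the 10 members had an entry, Clcf1 being the exception, and Il11 and Lifr had 2 windows each. Searched on both strands, the AP-1 motif TGANTCA was found before Il6, Il11 and Lif and before none of the other 6 matched members, and 6.75% of all 32851 windows hold it. The RefSeq start of Osmr lies 656 bases inside the gene as GENCODE M21 draws it, and all 250 bases of its window are exonic there, so that the sequence before the GENCODE start of Osmr was not searched. Both RefSeq starts of Lifr (chr15:7129572 and 7140542) are GENCODE coding starts but lie inside the gene, which begins at 7090614. The sequence before that outer start was not searched either. The CRE motif TGACGTCA was found before 0 of the 9 and in 1.55% of all windows. The stretches run 5′ to 3′ on the gene's strand with the match in capitals. They lie at chr5:30012864-30012883 (plus strand), chr7:4778221-4778251 (minus strand, at the inner of the 2 Il11 starts) and chr11:4257328-4257358 (plus strand). A match is a description of the letters and not a measured site.
Il6: cTGAGTCActtttaaagaaa
Il11: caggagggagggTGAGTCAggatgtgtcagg
Lif: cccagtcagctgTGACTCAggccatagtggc

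Among the receptor genes limma called Lifr lower and Osmr higher, and both encode partners of gp130. Lifr, the LIF receptor gene (chr15:7090614-7197489, GRCm38, plus strand), had 11.3, 9.59 and 9.59 FPKM in the controls and 7.19, 7.49 and 7.48 with nattokinase. All nattokinase libraries lay below all controls, and control replicate 1 was the highest. The log2 fold change was −0.41 (SE 0.068, limma adjusted p = 0.0050), and between −0.44 and −0.34 with any 1 library left out. Without the filter on low values, which raises the number of genes tested to 24549, the adjusted p was 0.055.

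Osmr, the oncostatin M receptor gene, lies beside Lifr on the same chromosome (chr15:6813577-6874969, minus strand). The 2 genes are 215644 bases apart with 1 annotated gene between them, which had 0 reads. Osmr had 6.86, 5.96 and 6.50 FPKM in the controls and 7.46, 7.90 and 7.80 with nattokinase, so that its groups did not overlap but stood closer than those of Lifr. Groups did not overlap for 28.8% of all tested genes. The log2 fold change was 0.23 (SE 0.061, limma adjusted p = 0.046), near the threshold. The call was lost with median-of-ratios scaling (adjusted p = 0.058), with equal protein-coding totals (0.080), without the filter on low values (0.17) and without any 1 library other than control replicate 1 (0.079 to 0.16), and limma-voom gave an adjusted p of 0.0041 where it called 10.9% of genes.

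Set against each other within a library, where library scaling cancels, the 2 receptor genes had a lower ratio of Lifr to Osmr with nattokinase. The ratio of Lifr to Osmr FPKM was 1.65, 1.61 and 1.47 in the controls and 0.964, 0.948 and 0.959 with nattokinase, or 1.58 ± 0.090 against 0.957 ± 0.0080 (SD, n = 3 each). Lifr FPKM was thus above Osmr FPKM in all 3 control libraries and slightly below it in all 3 nattokinase libraries. Each FPKM is divided by the merged exon length of its gene, so an order this close to equality also depends on those lengths. The ratio of Lifr to Osmr was chosen after the values were seen and is given without a test.

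**Figure D2:**
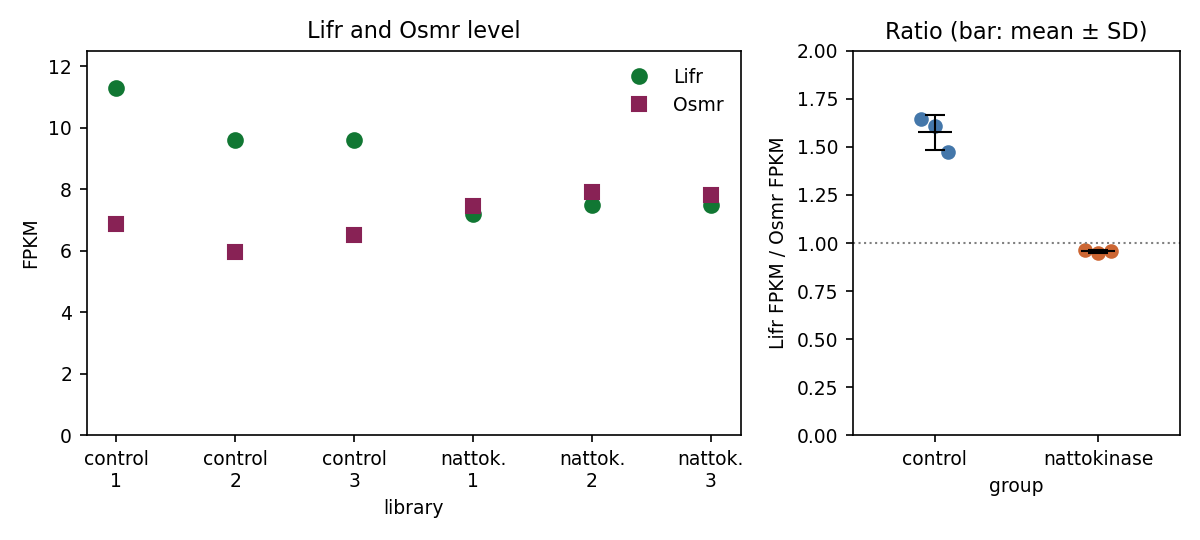
Left, FPKM of Lifr (green circles) and Osmr (purple squares) in each library; right, the ratio of the pair per library with mean ± SD in black and equality dotted. The ratio is 1.47 to 1.65 in the controls and 0.948 to 0.964 with nattokinase.

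The gp130 gene Il6st, which all these complexes share (chr13:112464070-112510086, plus strand), had 33.3, 31.5 and 31.1 FPKM in the controls and 32.5, 35.0 and 35.6 with nattokinase. The groups overlapped through nattokinase replicate 1, and the log2 fold change was 0.10 with an interval from −0.01 to 0.21 (limma adjusted p = 0.27). Il6ra (chr3:89864059-89913196, minus strand) encodes the alpha receptor of IL-6 and had 110, 79 and 92 reads in the controls and 85, 130 and 106 with nattokinase. Its levels of 0.785, 0.608 and 0.645 against 0.545, 0.858 and 0.669 FPKM overlapped, and the limma-voom interval of its log2 fold change ran from −0.36 to 0.36 (adjusted p = 0.998). Reads were counted per gene, so that the membrane and soluble forms that several of these receptors are known to have were not separated.

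Stat3 (chr11:100885098-100939540, minus strand) encodes the transcription factor that these receptors activate, by phosphorylation rather than by its amount of mRNA. It had 26.8, 27.4 and 25.5 FPKM in the controls and 23.4, 24.3 and 25.1 with nattokinase. The groups did not overlap, but the gap was narrow, and the log2 fold change of −0.13 (interval −0.23 to −0.02) was not called (limma adjusted p = 0.14). Exons of Stat3 overlap those of Stat5a on the opposite strand, which had 2.75 to 3.35 FPKM. Strand use is not stated, so reads in the overlap cannot be assigned with certainty. The genes that overlap exons of Clcf1 and Il6ra had at most 2 and 4 reads.

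Socs3, the feedback inhibitor of gp130 signalling, fell under every alternative tried (chr11:117966079-117970047, minus strand). STAT3 activity was not measured, and Socs3 mRNA alone does not stand for it. The level of Socs3 was 17.8, 16.3 and 16.9 FPKM in the controls and 12.1, 12.1 and 12.4 with nattokinase, from 832, 708 and 805 against 631, 615 and 660 reads. The 3 nattokinase values lay within 0.35 FPKM of each other and below the lowest control. The log2 fold change was −0.44 (SE 0.049, limma adjusted p = 0.00062) and between −0.47 and −0.41 with any 1 library left out. Over all alternatives the adjusted p ran from 2.2e-05 to 0.013. Relative to Stat3 in the same library, Socs3 stood at 0.664, 0.595 and 0.661 in the controls and 0.497 to 0.516 with nattokinase (0.640 ± 0.039 against 0.504 ± 0.010, SD, n = 3 each), a ratio chosen after the values were seen.

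Socs3 is known as a direct target of STAT3, and its start region is shown because it was the only one of the 9 matched members to hold a STAT motif. The palindrome TTCNNNGAA occurs in 7.02% of the 32851 windows, and its stricter form TTCCNGGAA, whose matches all count for TTCNNNGAA too, in 0.913% and in 0 of the members. In Socs3 the match runs from position −154 to −146, counted from the RefSeq start, and is in capitals. The 250 bases are from RefSeq (GRCm38.p6, chr11:117969367-117969616, minus strand) and run 5′ to 3′. That start lies 180 bases upstream of the coding transcript's start in GENCODE M21, and 77 of the bases lie in an exon of a noncoding Socs3 transcript. No binding was measured here, and that the other windows lack these letters says nothing about STAT3 at those genes.
Socs3: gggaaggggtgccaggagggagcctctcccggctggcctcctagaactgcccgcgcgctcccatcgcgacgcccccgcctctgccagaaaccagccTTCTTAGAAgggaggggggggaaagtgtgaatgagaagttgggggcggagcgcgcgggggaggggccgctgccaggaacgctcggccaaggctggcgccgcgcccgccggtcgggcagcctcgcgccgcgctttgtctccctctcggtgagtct

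Of the other inhibitors of JAK-STAT signalling, limma called Socs2 alone. Of 15 listed genes 12 were tested, of which 1 fell and 0 rose (limma; 1 and 2 at an unadjusted p of 0.05; limma-voom called 2 lower and 0 higher of 15), and their median log2 fold change was 0.08. Over all tested genes limma called 3.24% lower and 5.61% higher, and limma-voom called 10.9% in either direction. The gene that fell, Socs2, encodes a feedback inhibitor best known for growth hormone signalling. It had 2.38, 2.44 and 2.51 FPKM in the controls and 1.28, 1.26 and 1.04 with nattokinase, 0.489 of the control mean. The log2 fold change was −0.65 (SE 0.079, limma adjusted p = 0.00091) and −1.04 on recovered reads, where no pseudocount of 1 FPKM dampens a low gene. Cish, a STAT5-responsive relative named after its values were seen, was under the filter with 47, 24 and 38 reads in the controls and 17, 10 and 23 with nattokinase, and limma-voom gave a log2 fold change of −1.30 (interval −1.99 to −0.62, adjusted p = 0.0097). With limma on all genes without the filter the log2 fold change of Cish on the log2(FPKM + 1) scale was −0.24 and it was not called (adjusted p = 0.36).

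No further SOCS gene was called. Socs5 stood at 8.65 ± 0.37 FPKM in untreated cells and 9.77 ± 0.26 after nattokinase (SD, n = 3 each), without overlap or a call (log2 fold change 0.16, limma adjusted p = 0.11). The SUMO ligase gene Pias1 and the phosphatase gene Ptpn2, both restraints on STAT signalling, had log2 fold changes of 0.12 and 0.11 (limma adjusted p = 0.20 and 0.37). Socs1, the main brake on interferon signalling, lay at 0.705 to 1.07 FPKM across the 6 libraries and was not tested by limma.

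**Figure D3:**
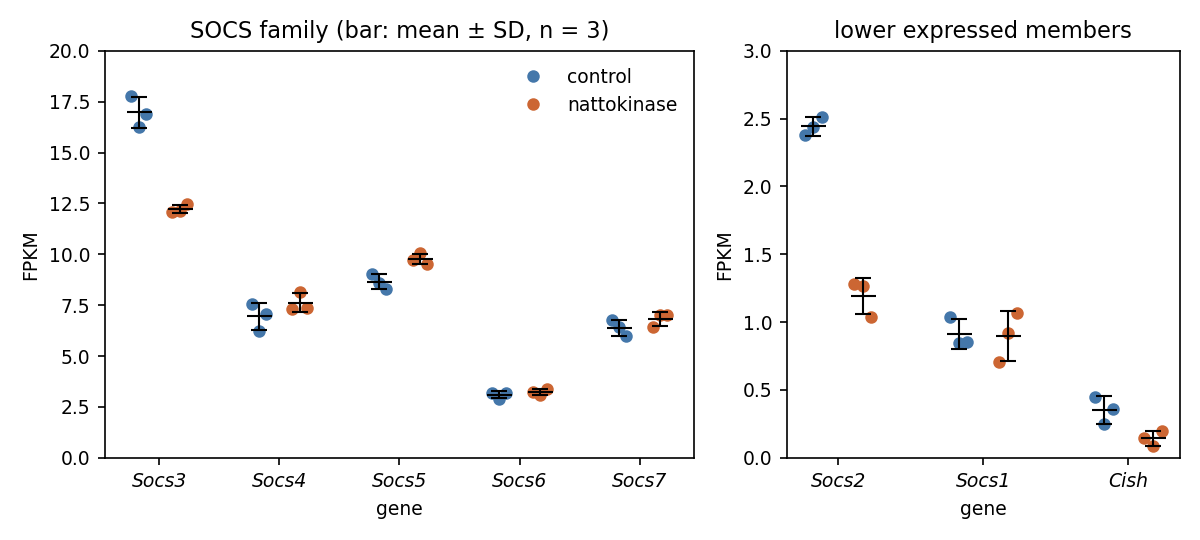
FPKM of the SOCS family genes and Cish in control (blue) and nattokinase (orange) libraries, points for libraries and black bars for mean ± SD; the right panel has its own axis for the genes of low level. Socs3, Socs2 and Cish have separate groups with lower nattokinase values, whereas Socs1, Socs4, Socs6 and Socs7 overlap.

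Few other ligands and receptors of the family reached the filter. Of 13 listed genes 3 were tested and 0 were called (limma; 1 higher and 0 lower at an unadjusted p of 0.05; limma-voom called 1 higher of 5), with a median log2 fold change of 0.04.

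Ctf1, the cardiotrophin-1 gene, had 4.79 ± 0.62 and 4.96 ± 0.40 FPKM, and Il11ra1, the IL-11 receptor gene, 4.25 ± 0.39 and 3.77 ± 0.23 (SD, n = 3 each; limma adjusted p = 0.81 and 0.30). Both overlap exons of a neighbouring gene. Cntfr, the alpha receptor for CLCF1, lay just under the filter at 0.698 to 1.09 FPKM. Osm, the ligand of the oncostatin M receptor, was not detected: each library had 0 reads of it, and by counting error alone this leaves room for 3 reads, or 0.072 to 0.088 FPKM. Cntf had 6 to 17 reads, Ctf2, Il27, Ebi3, Il27ra, Il31ra and Il11ra2 had at most 6, and Il31 had 0.

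Genes of the JAK-STAT relay moved in both directions. Of 13 listed 12 were tested, of which 1 rose and 3 fell, with a median log2 fold change of 0.00. Over all tested genes limma called 5.61% higher and 3.24% lower. Stat2, whose product carries interferon signals to the nucleus, fell from 31.5 ± 0.10 to 22.9 ± 0.66 FPKM (SD, n = 3 each; log2 fold change −0.45, limma adjusted p = 0.00032). Gab2, an adaptor that links gp130 to MAP kinase and PI3 kinase signalling, fell from 5.91 ± 0.27 to 4.44 ± 0.15 FPKM (log2 fold change −0.35, limma adjusted p = 0.0057). Jak2, a kinase that gp130 recruits, rose from 11.0 ± 1.45 to 13.7 ± 0.33 FPKM (limma adjusted p = 0.047). The call of Jak2 was near the threshold. It was lost without the filter on low values (adjusted p = 0.23), without any 1 library other than control replicate 1 (0.11 to 0.15), with median-of-ratios scaling (0.060) and with equal protein-coding totals (0.079).

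Among genes listed as STAT3 targets, limma called genes in the direction opposite to Socs3, and limma-voom called genes in both directions. Of 29 listed 22 were tested, of which 4 rose and 0 fell (limma; 7 and 2 at an unadjusted p of 0.05; limma-voom called 5 higher and 2 lower of 24), with a median log2 fold change of 0.05 beside 0.01 over all genes. The shares over all tested genes were 5.61% higher and 3.24% lower with limma, and 10.9% in either direction with limma-voom. Bcl6, which encodes a transcriptional repressor, had 1.92, 1.59 and 1.56 FPKM in the controls and 3.09, 3.84 and 3.35 with nattokinase (log2 fold change 0.72, SE 0.087, limma adjusted p = 0.00092). Myc, a growth regulator, had 22.1, 24.5 and 25.4 FPKM in the controls and 37.0, 32.4 and 31.8 with nattokinase (log2 fold change 0.47, limma adjusted p = 0.0026). The AP-1 subunit gene Junb rose from 46.5 ± 2.35 to 58.2 ± 3.21 FPKM (SD, n = 3 each; limma adjusted p = 0.0068). Maff, a small MAF transcription factor gene, rose from 8.25 ± 0.31 to 10.6 ± 1.13 FPKM (limma adjusted p = 0.022).

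These 4 genes also respond to growth factor, stress and other signals, and the list does not measure STAT3 activity. Bcl6 and Junb overlap exons of another gene. Without the filter on low values the calls of Junb and Maff were lost (adjusted p = 0.067 and 0.14), and that of Maff also without control replicate 3, nattokinase replicate 1 or nattokinase replicate 3 (0.058 to 0.074). The targets that limma-voom called lower were Lbp, which encodes the lipopolysaccharide-binding protein of the acute phase, and the interferon regulatory factor gene Irf1, both named after their values were seen. Lbp had 1.52, 1.64 and 1.83 FPKM in the controls and 0.953, 1.26 and 1.24 with nattokinase, without overlap (limma adjusted p = 0.073, limma-voom adjusted p = 0.021). Irf1, whose exons overlap another gene, had 15.4, 15.8 and 16.8 against 14.6, 13.6 and 13.9 FPKM, also without overlap (limma adjusted p = 0.068, limma-voom adjusted p = 0.049). In the other direction limma-voom alone called Timp1 higher, a gene likewise named after its values were seen. Timp1 had 82.1, 92.6 and 103.8 against 122.2, 104.0 and 108.4 FPKM, barely without overlap (limma adjusted p = 0.12, limma-voom adjusted p = 0.037). Of other acute-phase targets, likewise chosen for mention, Fgg, Hp, Lcn2, Saa3 and Serpina3n had at most 13 reads in any library.

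**Figure D4:**
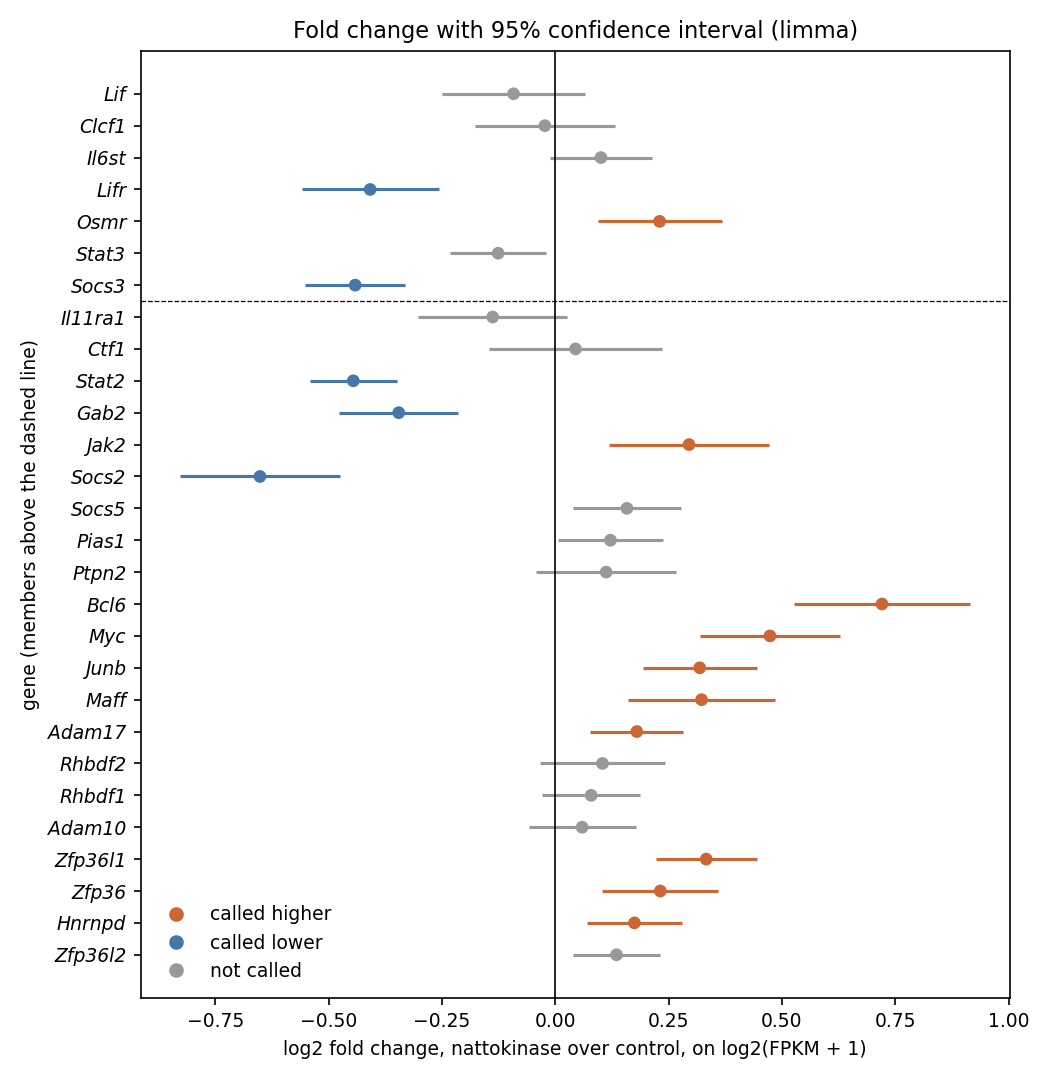
Log2 fold change of nattokinase over control with its 95% confidence interval (limma, log2(FPKM + 1)) for the 7 tested members, above the dashed line, and pathway genes described in the text, below it; orange called higher, blue called lower, grey not called. Lifr and Socs3 stand below 0 with Socs2, Stat2 and Gab2, and Osmr stands above 0.

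Further genes act on these receptors and ligands after transcription. Of 4 genes for receptor shedding all 4 were tested, 1 rose and 0 fell (limma; 1 and 0 at an unadjusted p of 0.05; limma-voom called 1 higher and 0 lower), with a median log2 fold change of 0.09. Adam17, whose protease cleaves the IL-6 receptor from the cell surface, rose from 11.7 ± 0.083 to 13.4 ± 0.26 FPKM (SD, n = 3 each; log2 fold change 0.18, limma adjusted p = 0.039). Adam10, Rhbdf1 and Rhbdf2, a related protease and the escorts of ADAM17, had log2 fold changes of 0.06 to 0.10 and were not called. Of 10 regulators of cytokine mRNA decay all 10 were tested, 3 rose and 0 fell (limma; 4 and 0 at an unadjusted p of 0.05; limma-voom called 3 higher and 0 lower), with a median log2 fold change of 0.13. Beside both lists, limma called 5.61% of all tested genes higher and 3.24% lower, and limma-voom called 10.9% in either direction.

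Zfp36l1 and Zfp36 encode proteins that bind AU-rich elements and speed the decay of cytokine mRNAs. Zfp36l1 rose from 17.6 ± 0.89 to 22.4 ± 0.48 FPKM (SD, n = 3 each; log2 fold change 0.33, limma adjusted p = 0.0030) and Zfp36, known as tristetraprolin, from 16.3 ± 0.81 to 19.3 ± 1.12 FPKM (log2 fold change 0.23, limma adjusted p = 0.034). Hnrnpd, which encodes AUF1, rose from 26.7 ± 0.51 to 30.3 ± 1.28 FPKM (limma adjusted p = 0.047), and Zfp36l2 had a log2 fold change of 0.14 without a call (limma adjusted p = 0.084). Adam17, Zfp36l1, Zfp36, Hnrnpd and Zfp36l2 overlap exons of another gene. With equal protein-coding totals the calls of Adam17, Zfp36 and Hnrnpd were lost (adjusted p = 0.082, 0.060 and 0.10), as they were without the filter on low values (0.11, 0.17 and 0.16), and those of Adam17 and Hnrnpd also with median-of-ratios scaling (0.051 and 0.063). Without any 1 library other than control replicate 1, Adam17 and Hnrnpd were not called (adjusted p = 0.098 to 0.14 and 0.070 to 0.20), and Zfp36 was called only without control replicate 2 or without nattokinase replicate 1 (0.061 to 0.13 without any of the other libraries).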

How the data were processed

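RNA was sequenced from 3 untreated and 3 nattokinase-treated samples, grouped and numbered by their titles. The aligner HISAT2 2.1.0, the counter featureCounts 1.6.0, Trimmomatic 0.38, DESeq2 1.22.1, MultiQC, FastQC and CASAVA are listed, without their settings, per the submitters' processing notes. The build named there is human, although the gene identifiers are from mouse. The deposited values are FPKM, as found from the values. Each was multiplied by the merged exon length in GENCODE M21 (GRCm38). The product was divided by the median of the lowest products above 0 in the same library, taken as 1 read. The result was within 0.05 of a whole number of reads for 100% of values above 0. Whether reads or fragments were counted is not stated. Gene positions come from GENCODE M21 and promoter sequences from RefSeq.

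Values were tested as log2(FPKM + 1) with limma 3.58.1 in R 4.3.3 (group as the only term, trend and robust moderation, two-sided) over the 10913 genes that reached 1 FPKM in 3 or more libraries, with Benjamini-Hochberg adjustment over all of them. Alternatives were limma-voom on recovered reads (at least 10 reads in 3 libraries), median-of-ratios scaling, equal protein-coding totals, other filters, pseudocounts of 0.1 and 0.5, the replicate number as a block, and each library left out. Named genes are all 10 members, every tested gene among the other ligands and receptors, and up to 4 tested genes with the smallest p in each further list, and other genes were named after their values were seen. Some genes that this rule names are not reported here. The members and lists were chosen with earlier results of these data known. The scripts were tested on simulated data. Replicates of a group correlated at 0.992 to 0.995 and differed by more than counting error. Figures were drawn with matplotlib 3.10.9.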

Additional observations from a re-analysis of the deposited data

How the results depend on the processing

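Of the 7 tested members, Socs3, Stat3, Lif and Il6st kept direction and side of the threshold under all 14 alternatives. Members called higher, which is Osmr, numbered 0 with median-of-ratios scaling, equal protein-coding totals, no filter or the replicate block, and 0 to 1 with 1 library left out. Members called lower numbered 1 without the filter. Clcf1 had log2 fold changes from −0.076 to 0.017 and Ctf1 from −0.036 to 0.12 with 1 library left out, changing sign without control replicate 3 or nattokinase replicate 2 and without control replicate 1 or nattokinase replicate 3. Over all genes 221 rose and 109 fell without the filter, and 330 to 726 and 193 to 481 with 1 library left out. Genes of the relay called higher were 0 with median-of-ratios scaling, equal protein-coding totals, no filter or the block, as were shedding genes, both 0 to 1 with 1 library left out. Genes of mRNA decay called higher were 1 with equal protein-coding totals or no filter, and 1 to 2 with 1 library left out. Other ligands and receptors called higher were 1 with limma-voom and 0 to 1 with 1 library left out. Inhibitors called lower were 2 with limma-voom and 0 at a filter of 5 FPKM, which leaves Socs2 untested. STAT3 targets called higher were 2 without the filter, and those called lower were 2 with limma-voom, 1 with either scaling and 0 to 1 with 1 library left out. The causes were not tested. Of 423 values of single named genes, 360 were counted as unchanged. For tested genes this meant the same direction and side of the threshold. For Il6, Il11, Il6ra and Cish, which were under the filter, it meant a log2 ratio within the pooled replicate SD of the main one.

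The replicate numbers did not pair the libraries: same-numbered deviations correlated at −0.09, −0.04 and −0.06, and 0 of 3 pairs was the best match. With the replicate number as a block 439 genes rose and 249 fell, and Osmr had an adjusted p of 0.097, Jak2 of 0.051, Adam17 of 0.10 and Hnrnpd of 0.11. Il6, Il11 and Il6ra are limited by depth, with 7 to 130 reads per library.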
